A study of Homo sapiens with 2 samples.

Results

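The 10 genes described here govern or mark the epithelial-mesenchymal transition (EMT), and they were measured in 2 human melanoma cell lines. They are the zinc-finger repressors ZEB1, ZEB2, SNAI1 and SNAI2, the basic helix-loop-helix factors TWIST1 and TWIST2, the homeobox factor PRRX1, the intermediate filament gene VIM and the epithelial splicing regulators ESRP1 and ESRP2. The probe sets whose platform annotation names 1 of these genes alone were taken, which gave 21 of the 54675 probe sets on the array and 9 of the 10 genes. The only probe set that names ESRP2 names the microRNA gene MIR6773 as well, so no value was assigned to ESRP2. That jointly annotated probe set stood at 4.98 in IGR37 and 4.42 in IGR39 on the log2 scale.

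IGR37 was grown from a lymph node metastasis, and IGR39 from an achromic (unpigmented) primary tumour of the skin. Both are established melanoma lines grown in DMEM with serum, and neither carries a treatment or an engineered allele in the labels. Total RNA of each line was hybridised to 1 Affymetrix Human Genome U133 Plus 2.0 array, so each value below is a single measurement of a single culture, no test was possible and no difference has a replicate check. Levels are the authors' RMA values, log2 intensities that were normalised between arrays, and a difference is the log2 level in IGR37 minus that in IGR39. A difference of 1 is 2-fold.

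EMT is a reversible change in which epithelial cells lose their junctions and gain motility, and it is driven by factors of the ZEB, Snail and Twist families that bind E-box sequences and repress epithelial genes such as CDH1. ESRP1 and ESRP2 hold the epithelial pattern of splicing and are themselves targets of ZEB1 and ZEB2 repression. Melanocytes arise from the neural crest and are not classical epithelial cells. In that lineage ZEB2 and SNAI2 accompany the differentiated state, while ZEB1 and TWIST1 have been linked to dedifferentiated melanoma.

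Because ZEB1 and ZEB2 bind E-boxes of the form CAGGTG, this motif was searched on both strands in the promoter windows of the members, from 250 bases before to 50 bases after each RefSeq start site (build GRCh38.p14). Windows were at hand for 5 members, 11 in all, of which 7 belonged to ZEB1. The motif was found in 2 of the 7 ZEB1 windows and in none of the single windows of ZEB2, VIM, TWIST2 and PRRX1. Over all 35116 windows of this length, 20.6% held the motif and 0.635% held it 3 or more times. These shares are per window, so they are no yardstick for the ZEB1 window below, picked from 7 for its matches. The ZEB1 window with the most matches and the ZEB2 window are shown, since these genes differed most in opposite directions among the repressors. Capitals mark the motif on either strand, which begins at bases 9, 166 and 284 of the ZEB1 window. The last of these lies after the start site. A match in these letters is a description of the sequence and shows no binding.

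ZEB1 (chr10:31318966-31319265, plus strand): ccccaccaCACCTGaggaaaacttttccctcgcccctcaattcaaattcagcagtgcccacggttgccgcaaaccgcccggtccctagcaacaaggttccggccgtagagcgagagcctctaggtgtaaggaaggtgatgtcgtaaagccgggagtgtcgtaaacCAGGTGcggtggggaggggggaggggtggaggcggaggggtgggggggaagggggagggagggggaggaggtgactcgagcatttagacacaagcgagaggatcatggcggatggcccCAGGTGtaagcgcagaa
ZEB2 (chr2:144520070-144520369, minus strand): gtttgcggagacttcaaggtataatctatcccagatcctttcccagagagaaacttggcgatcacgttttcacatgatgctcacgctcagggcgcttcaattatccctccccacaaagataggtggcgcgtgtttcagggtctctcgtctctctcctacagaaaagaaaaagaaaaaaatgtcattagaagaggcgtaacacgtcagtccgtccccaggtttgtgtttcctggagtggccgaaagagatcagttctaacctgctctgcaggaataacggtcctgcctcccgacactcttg

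On the arrays as a whole, 19775 genes had a probe set with a single symbol, and 8501 of them reached log2 6 in the brighter line. The median difference of these genes was 0.07 with an SD of 1.18. The differences of 24 poly-A spike-in probe sets, which enter with the RNA ahead of labelling, ran from -0.47 to 0.68, and those of 18 hybridisation controls from -0.14 to 0.21. Probe sets of 1 gene scattered around their gene's mean difference with a pooled SD of 0.40, over 3178 genes. Of the markers that define the melanocytic lineage, all 6 measured ones reached log2 6 in IGR37, while in IGR39 only MITF did. SOX10 stood at 10.65 in IGR37 and 4.10 in IGR39, and PMEL at 12.47 in IGR37 and 4.29 in IGR39, so most defining markers of the labelled tumour type were near background in IGR39.

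Cell types that carry ZEB and Twist factors of their own were checked by their markers. All 8 markers of lymphocytes and macrophages stayed under log2 6, and their highest value was 5.0 in IGR37 and 5.03 in IGR39. Their mean level was 3.94 in IGR37 and 3.87 in IGR39. The 5 endothelial markers peaked at 4.60 in IGR37 and 4.81 in IGR39, with a mean level of 4.0 in IGR37 and 3.97 in IGR39. Of 8 fibroblast markers, 3 reached log2 6 in IGR37 and 2 in IGR39, and their mean level was 5.12 in IGR37 and 5.36 in IGR39. Of 5 keratinocyte markers, 1 reached it in each line, with mean levels of 5.05 in IGR37 and 5.12 in IGR39. A bulk array cannot tell fewer cells of a type apart from less RNA per cell.

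Of the 9 measured members, 6 reached log2 6. Among these 6, ESRP1, ZEB2 and SNAI2 were at least 2-fold higher in IGR37, VIM and ZEB1 were at least 2-fold lower, and TWIST1 lay at the edge of the 2-fold limit. Over all 8501 genes, 11.4% passed the 2-fold limit upwards in IGR37, 9.5% passed it downwards and 21.0% passed it in either direction. That background leans on scaling, since 973 genes were higher and 808 lower as deposited, against 635 higher and 1235 lower when the arrays were centred on housekeeping genes. The housekeeping shift was 0.29, the mean over 26 genes. Their median was 0.17, and 3 of the 26 were themselves at least 2-fold higher in IGR37. The shift was taken from every difference alike and was smaller than the smallest positive member difference, 0.99 for TWIST1. No member could therefore change direction under it. The members were selected with earlier results in view, so their share is a description. The median difference of the 6 was 1.19. SNAI1, TWIST2 and PRRX1 stayed under log2 6 in both lines and do not enter these gene counts.

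**Figure D1:**
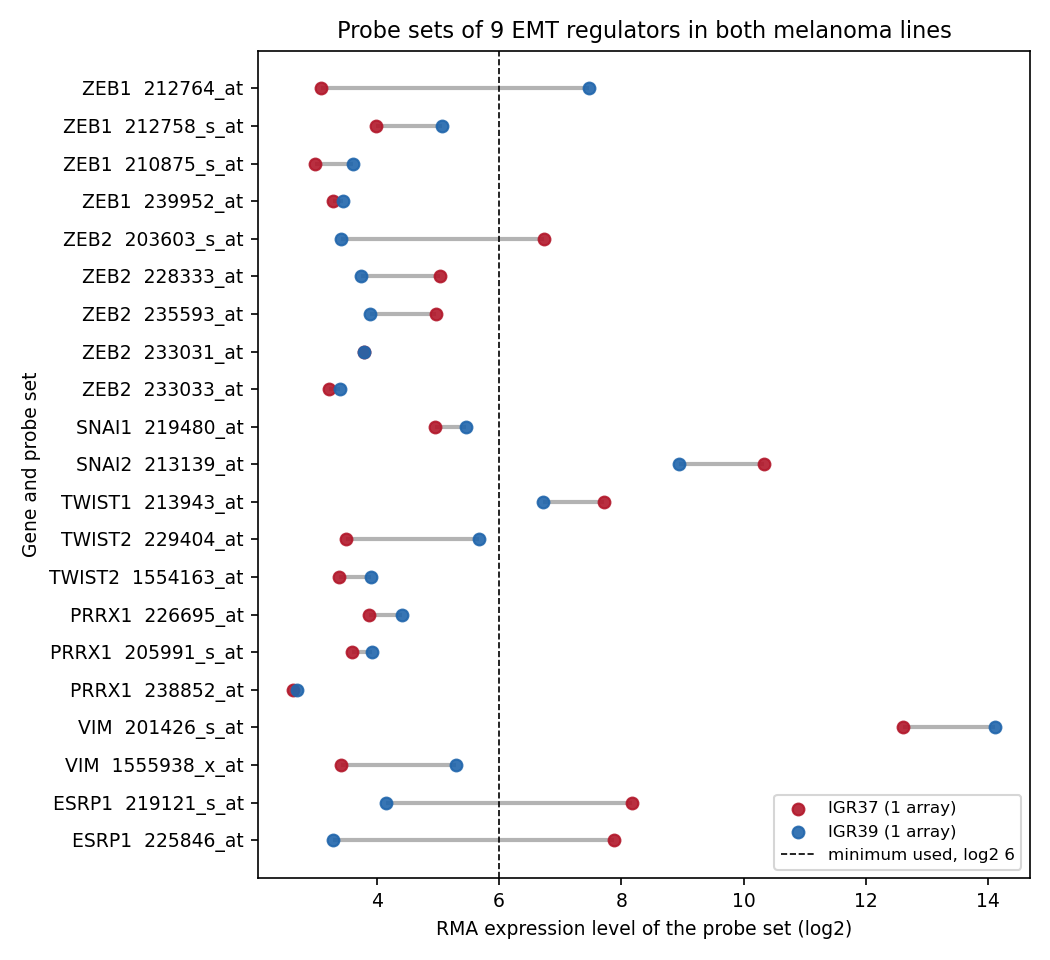
RMA level (log2, x axis) of each of the 21 probe sets of 9 genes (y axis) in IGR37 and IGR39, with 1 array per line and a dashed line at log2 6. The points of ZEB1 and ZEB2 lie in opposite order on their brightest probe sets, and 14 of the 21 probe sets stay left of the dashed line in both lines.

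The repressor ZEB1 was the member with the lowest difference. Its brightest probe set, 212764_at, stood at 3.09 in IGR37 and 7.48 in IGR39, a difference of -4.38 or 20.9-fold lower, which ranked 53rd from the lowest of the 8501 genes. The IGR37 value lies in the range of unexpressed probe sets, so the fold rests on a background level. The other probe sets of ZEB1 were dim in both lines but lay in the same order. Probe set 212758_s_at stood at 3.99 in IGR37 and 5.06 in IGR39, and 210875_s_at at 3.0 in IGR37 and 3.61 in IGR39. The faintest, 239952_at, differed by only -0.16. ZEB1 was thus lower in IGR37 on 4 of 4 probe sets, with differences from -4.38 to -0.16 and a mean of -1.56. The differences of 210875_s_at and 239952_at lie inside the central range of dim probe sets given below, so their order is not read as agreement.

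ZEB2, the paralogue of ZEB1, lay the other way. Its brightest probe set, 203603_s_at, stood at 6.73 in IGR37 and 3.42 in IGR39. The difference of 3.31, or 9.94-fold, ranked 115th from the highest. As with ZEB1, the fold rests on a background level, here that of IGR39. Further probe sets of ZEB2 stayed under log2 6, with 228333_at at 5.03 in IGR37 and 3.74 in IGR39, and 235593_at at 4.97 in IGR37 and 3.90 in IGR39. Of the remaining pair, 233033_at differed by -0.18. Probe set 233031_at gave 3.80 in both lines to the last deposited digit, as did 214 probe sets on the array. The mean over the 5 ZEB2 probe sets was 1.10, so the size of the ZEB2 difference depended on the probe set more than its sign did.

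The dim probe sets need a yardstick of their own. Among the 39821 probe sets under log2 6 on both arrays, 14 of them member probe sets, the central 95% of differences ran from -0.73 to 0.70. This is a description of dim probe sets, not a test. The differences of 5 of the 14 lay outside it. They were those of ZEB1 212758_s_at, TWIST2 229404_at and VIM 1555938_x_at, lower in IGR37, and of ZEB2 228333_at and 235593_at, higher in IGR37. Over all 21 member probe sets, 7 were higher in IGR37, 13 lower and 1 equal. The same count was not made over the whole array, and 14 of the 21 were dim, so no lean is read from it.

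Among the Snail factors, SNAI2, which encodes the neural crest repressor Slug, was bright in both lines. Its single probe set stood at 10.33 in IGR37 and 8.94 in IGR39, a difference of 1.38 or 2.61-fold. That difference ranked 572nd from the highest. SNAI1, which encodes Snail, stood at 4.95 in IGR37 and 5.45 in IGR39, a difference of -0.50 that is under the 2-fold limit and at a level under log2 6. SNAI3, the remaining Snail family gene, stood at 3.78 in IGR37 and 3.73 in IGR39, near background in both. SNAI2 was the Snail gene above log2 6 in these cultures, and it was above that level in both lines.

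The Twist factors, which act in mesoderm and neural crest, differed from each other. TWIST1 stood at 7.71 in IGR37 and 6.72 in IGR39 on its single probe set. Its difference of 0.99, or 1.99-fold, fell just short of the limit as deposited, and it was 1.02 after centring on array medians and 0.71 after centring on housekeeping genes. TWIST1 was on the same side as ZEB2 and SNAI2, and ZEB1 on the other. TWIST2 stood at 3.50 in IGR37 and 5.67 in IGR39 on 229404_at, a difference of -2.17, and at 3.38 in IGR37 and 3.91 in IGR39 on 1554163_at. PRRX1, a homeobox factor of mesenchyme, was near background, with its 3 probe sets between 2.64 and 3.87 in IGR37 and between 2.69 and 4.42 in IGR39.

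VIM encodes vimentin, the intermediate filament of mesenchymal cells and of most melanoma cells. Probe set 201426_s_at stood at 12.60 in IGR37 and 14.10 in IGR39, so signal was high in both lines. The difference of -1.50, or 2.84-fold lower, ranked 493rd from the lowest. The IGR39 value was the highest of the whole array, the end of the scale where signal can saturate, and whether this limited the difference was not tested. The second probe set, 1555938_x_at, stood at 3.42 in IGR37 and 5.30 in IGR39, a difference of -1.88.

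ESRP1, the splicing regulator, was the member with the highest difference, and both of its probe sets reached log2 6 in IGR37 only. Probe set 219121_s_at stood at 8.18 in IGR37 and 4.15 in IGR39, a difference of 4.03 or 16.3-fold that ranked 66th from the highest. Probe set 225846_at stood at 7.89 in IGR37 and 3.29 in IGR39, a difference of 4.60. Both IGR39 values are near background, so these differences rest on a background level too. The differences of these 2 probe sets lay closer together than those of the ZEB1 or ZEB2 probe sets.

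**Figure D2:**
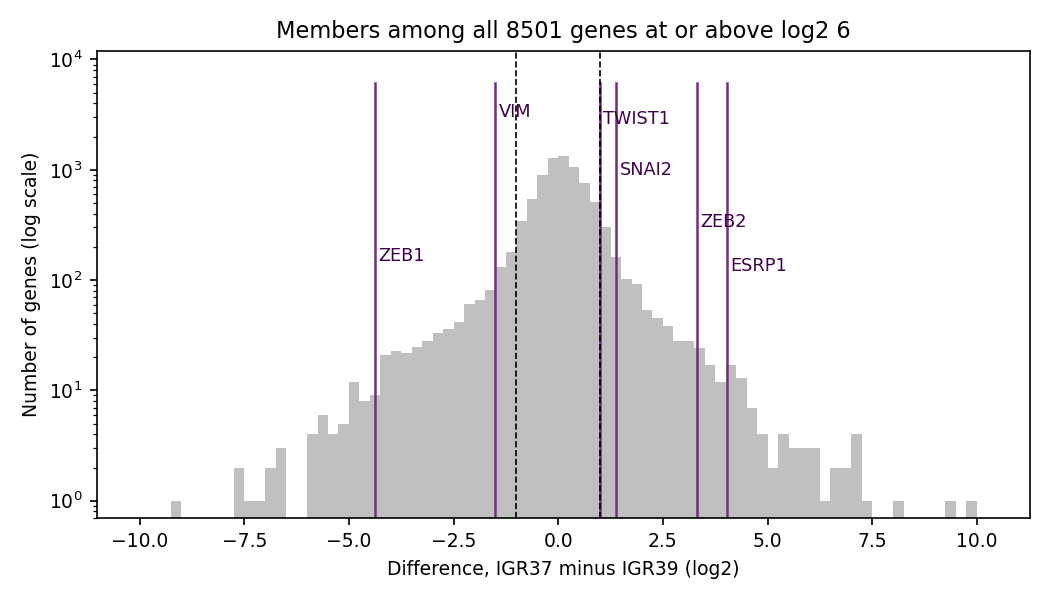
Number of genes (y axis, log scale) by difference, IGR37 minus IGR39 (x axis, log2), for the 8501 genes at or above log2 6, with the 6 members at this level as purple lines and the 2-fold limits as dashed lines. ZEB1 at -4.38 lies in the left tail, ZEB2 at 3.31 and ESRP1 at 4.03 in the right tail, and TWIST1 at 0.99 on the dashed line.

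The genes next to the 10 members on the chromosome were then read, 4 protein-coding genes on each side in the RefSeq order, to see whether whole stretches differed. Of 63 named neighbours, 36 reached log2 6, and 4 of these passed the 2-fold limit upwards in IGR37 and 5 downwards. Over all 8501 genes, 11.4% passed it upwards and 9.5% downwards. The 36 include 7 neighbours of ESRP2, 1 of them higher past the limit, though ESRP2 itself has no value. Around ESRP1 on chromosome 8, 7 neighbours reached the level, and they ran from -1.0 to 1.01. The flanking VIRMA and DPY19L4 differed by 0.13 and 0.50, so the difference of ESRP1 was larger than that of any measured neighbour. Around ZEB1 on chromosome 10, the 4 neighbours at this level were all lower in IGR37, from -1.33 for KIF5B, a kinesin motor gene, to -0.65 for MTPAP. Of these, 2 passed the 2-fold limit. VIM lies on chromosome 10 as well, and its 2 neighbours at this level were also lower. They were RSU1 with a difference of -1.21 and STAM with -0.45. Whether a stretch of chromosome 10 differs as a whole was not tested. Around ZEB2 on chromosome 2, KYNU, a tryptophan-catabolising enzyme gene, stood at 6.82 in IGR37 and 3.81 in IGR39, a difference of 3.01. The other 3 ZEB2 neighbours at this level stayed within 2-fold. Around SNAI2, also on chromosome 8, 4 neighbours differed by 0.04 to 0.52.

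**Figure D3:**
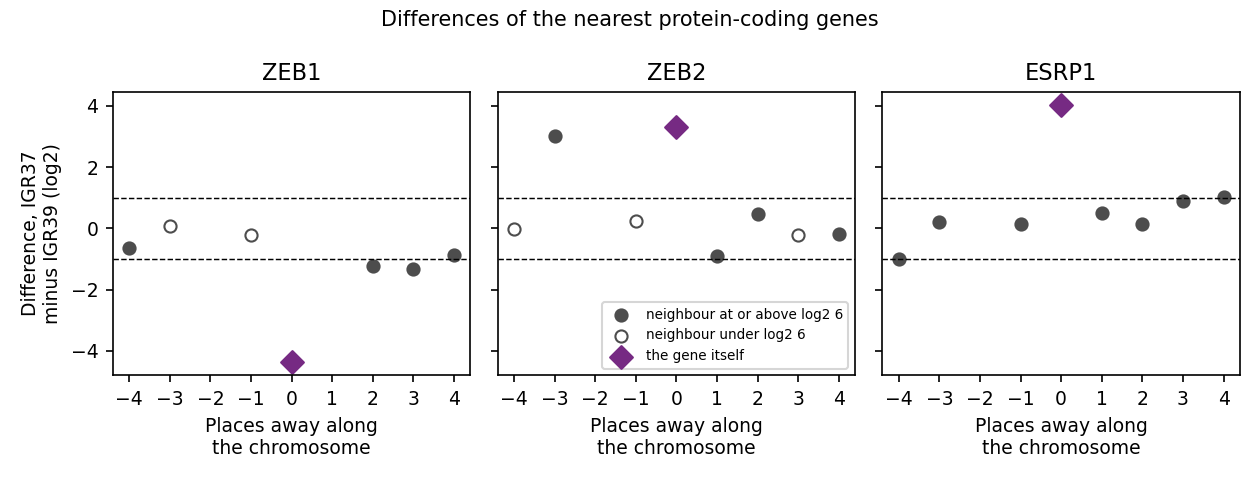
Difference, IGR37 minus IGR39 (y axis, log2), of ZEB1, ZEB2 and ESRP1 (diamonds) and of the protein-coding genes up to 4 places away (x axis), filled where the brighter line reached log2 6. The diamonds lie at -4.38, 3.31 and 4.03, while every filled neighbour except KYNU lies between -1.33 and 1.01.

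Genes that the members act on were read from lists, which were drawn up knowing earlier results of these data. CDH1, which encodes E-cadherin and is the classical target of ZEB and Snail repression, stood at 6.56 in IGR37 and 3.07 in IGR39 on 201131_s_at, a difference of 3.49. Its second probe set, 201130_s_at, stood at 3.56 in IGR37 and 3.61 in IGR39, so the CDH1 signal rested on 1 of 2 probe sets. CDH2, which encodes N-cadherin, was lower in IGR37 on both of its probe sets, with differences of -3.18 and -1.75 and with 203440_at at 5.72 in IGR37 and 8.90 in IGR39.

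Most other epithelial genes were near background in both lines. Of 38 named genes of epithelial adhesion and polarity, 28 stayed under log2 6 in both lines, among them EPCAM at 3.32 in IGR37 and 3.22 in IGR39. Of the 10 that reached it, CDH1 alone was higher by 2-fold or more and 4 were lower by as much. Over all 8501 genes, 11.4% were higher by as much, 9.5% lower and 21.0% either. Of the 38, 4 reached log2 6 in IGR37 and 7 in IGR39. The 4 lower genes entered the count only through IGR39, and CDH1 only through IGR37, the line in which each is high. The median of the 10 was -0.49 against 0.07 over all genes, and the median over all 38 at any level was -0.03. KRT18, a keratin of simple epithelia, stood at 4.46 in IGR37 and 9.33 in IGR39. MAL2, a protein of apical transport, stood at 3.07 in IGR37 and 6.96 in IGR39. TJP1, the tight junction scaffold ZO-1, stood at 5.09 in IGR37 and 7.14 in IGR39. Of 13 epithelial transcription factors, 12 stayed under log2 6, including GRHL2 at 2.93 in IGR37 and 2.92 in IGR39. The remaining one, KLF4, stood at 5.69 in IGR37 and 9.42 in IGR39.

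Mesenchymal markers were mostly lower in IGR37. Of 33 named genes, 19 reached log2 6, of which 14 were lower by 2-fold or more and 0 higher by as much, with a median of -2.38. The 14 are 73.7% of the 19, while 9.5% of all genes were lower by as much. Of the 33, 10 reached log2 6 in IGR37 and 17 in IGR39. Most of the 14 lower genes entered the count only through IGR39, the line in which they are high. The median over all 33 at any level was -0.82. The receptor gene AXL differed by -7.55, the collagen cross-linking enzyme gene LOXL2 by -7.05 and FBN1, which encodes the microfibril protein fibrillin, by -4.64. The other 5 of the 19 lay within 2-fold, between 0.01 and 0.52. This list shares 5 genes with the fibroblast markers. Of the 4 fibroblast markers at log2 6, COL1A2 and FAP differed by -2.43 and -2.03, COL1A1 by 0.27 and LUM, which is not in the mesenchymal list, by 2.85. The part of fibroblasts in these values was not tested.

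Other transcription factors linked to EMT were also divided. Of 22 named, 12 reached log2 6, of which 7 were lower in IGR37 by 2-fold or more and 1 higher by as much, with a median of -1.20. Together they are 66.7% of the 12, against 21.0% of all genes past the limit. Of the 22, 8 reached log2 6 in IGR37 and 11 in IGR39, and the median over all 22 at any level was -0.19. HMGA2, an architectural chromatin protein, differed by -5.74, SOX9 by -5.12 and ID1, an inhibitor of helix-loop-helix factors, by -4.80. LEF1, a nuclear partner of beta-catenin, stood at 8.51 in IGR37 and 5.23 in IGR39. The median of this list turned to 0.33 without probe sets ending in _s_at or _x_at, when 2 members were at least 2-fold lower.

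The corepressors and degradation factors that serve ZEB and Snail proteins were read in the same way. Of 29 named genes, 22 reached log2 6 and 19 of these lay within 2-fold, with a median of -0.08. The 3 others are 13.6% of the 22, against 21.0% of all genes past the limit. AJUBA, a LIM-domain scaffold that Snail proteins recruit, was the 1 lower gene past the limit, at 4.40 in IGR37 and 8.57 in IGR39. KAT2B, a histone acetyltransferase, stood at 7.09 in IGR37 and 4.91 in IGR39, and EHMT2, a histone H3 methyltransferase, at 6.98 in IGR37 and 5.76 in IGR39. 

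For ESRP1, the other splicing regulators gave a comparison. Of 21 named, 19 reached log2 6 and 16 lay within 2-fold, with a median of 0.02, so 15.8% passed the limit against 21.0% of all genes. CELF2, an RNA-binding regulator of exon choice, stood at 9.69 in IGR37 and 6.08 in IGR39. RBFOX2, a splicing factor linked to mesenchymal splicing patterns, stood at 7.73 in IGR37 and 9.46 in IGR39, and RBM47 at 5.80 in IGR37 and 7.22 in IGR39. Among genes whose exons ESRP proteins are known to select, 10 of 12 reached the level and 7 lay within 2-fold. The share past the limit was 30.0%, against 21.0% of all genes. CD44, the hyaluronan receptor, was lower in IGR37 on all 9 probe sets at this level, with differences from -2.55 to -1.82. ENAH, an actin regulator, stood at 7.89 in IGR37 and 8.95 in IGR39. FGFR2 stood at 6.96 in IGR37 and 5.78 in IGR39 on the 1 of its 11 probe sets that reached log2 6. These values are of gene level, and splice forms were not resolved.

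**Figure D4:**
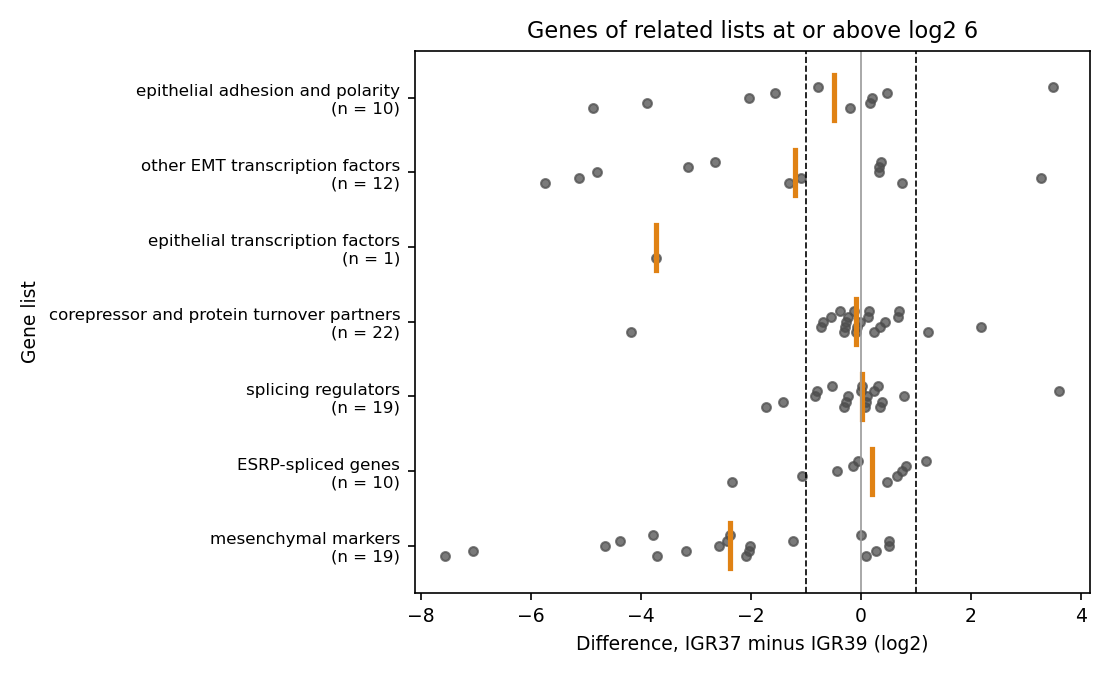
Difference, IGR37 minus IGR39 (x axis, log2), of the genes at or above log2 6 in 7 related lists (y axis), with a point per gene, an orange bar at the list median and dashed lines at the 2-fold limits. The mesenchymal markers have a median of -2.38 and no point past the upper limit, while the splicing regulators and the corepressor list centre near 0.

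Noncoding transcripts linked to ZEB1 and ZEB2, by position or through microRNAs, were low. ZEB1-AS1, the antisense neighbour of ZEB1, stood at 3.18 in IGR37 and 3.41 in IGR39. MIR200CHG, a host transcript of microRNAs of the miR-200 family that repress ZEB1 and ZEB2, stood at 3.93 in IGR37 and 3.97 in IGR39, and MIR205HG at 3.17 in IGR37 and 3.30 in IGR39. No difference in these host transcripts was detectable at this signal, and mature microRNAs were not measured.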

How the data were processed

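Each line was measured on 1 array. The authors deposited log2 values, 1 for each probe set. Per the submitters' processing notes, RMA and the affy package produced them. Their versions and the set of arrays normalised together are not given in the sources used. RMA makes the distributions of the arrays alike, so it removes overall differences in brightness and compresses low levels. Gene symbols came from the platform's annotation and were updated through gene identifiers to RefSeq (GRCh38.p14), which matched 41037 of 41091 probe sets with a single symbol. Another 1801 probe sets with several symbols gave no gene value. Some list genes had no named probe set and were not analysed here.

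For each gene the probe set brightest on average was kept, and counts used genes whose brighter array reached log2 6. With 1 array per line no test was run, and precision is limited by this number of arrays. The members and lists were chosen with earlier results of these data known. All members were named, with up to 3 genes past 2-fold in each direction per list, and CDH1 and CDH2. The neighbours, the antisense and host transcripts, SNAI3, EPCAM, GRHL2, SOX10, PMEL and the fibroblast markers were named in addition, after values were seen. Likeness of pattern was not computed, since any 2 genes correlate perfectly over 2 arrays. The 8 alternatives were other minimums, the mean over probe sets, leaving out probe sets ending in _s_at or _x_at, and 3 scalings (array medians, housekeeping genes, a lowess trend with a span of 0.3). The steps were tested on simulated data in which all probe sets of a gene had the same set difference. Disagreement between probe sets, as seen for ZEB1 and ZEB2, was therefore not covered. Promoter sequences are from RefSeq. The tools were Python 3.11.15, statsmodels 0.14.6, numpy 2.4.6, matplotlib 3.10.9 and pandas 2.3.3.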

Additional observations from a re-analysis of the deposited data

How the results depend on the processing

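Under all 3 scalings and both ways of treating several probe sets, ZEB1 stayed lower and ZEB2 higher in IGR37, but their sizes rested on the brightest probe set. Averaging all probe sets gave -1.56 for ZEB1 and 1.10 for ZEB2, with both genes then under log2 6. This left 2 members at least 2-fold higher, ESRP1 and SNAI2, and 1 lower, VIM. That setting moved the epithelial adhesion median to -1.61 and left 0 higher genes in the epithelial adhesion, other EMT factor, splicing and ESRP-spliced lists. It left 1 higher gene in the corepressor list and 1 lower gene each among splicing regulators and ESRP-spliced genes. Leaving out probe sets ending in _s_at or _x_at, which includes the brightest of ZEB2 and of VIM, gave 1.07 for ZEB2, which then fell under log2 6, and left 2 higher members, ESRP1 and SNAI2, and 1 lower, ZEB1, with no VIM probe set remaining. The median of the other EMT factors then turned to 0.33 with 2 lower and 0 higher genes, and the cause was not tested. Lower genes numbered 5 among mesenchymal markers, 1 among splicing regulators and 0 among epithelial factors, and higher genes 0 in the epithelial adhesion and splicing lists.

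At a minimum of log2 5, the other EMT factors and the splicing regulators had 2 higher genes each, and the median of epithelial factors was -0.06. TWIST2 joined VIM and ZEB1 at this minimum and with no minimum, for 3 lower members. At log2 7, ZEB2 left the count, with 2 higher members, and the medians were -1.80 for epithelial adhesion and -3.18 for mesenchymal markers, with 0 higher genes in the epithelial adhesion and ESRP-spliced lists and 1 in the corepressor list. With no minimum, which adds genes near background, the medians were -0.03 for epithelial adhesion, -0.19 for other EMT factors, -0.06 for epithelial factors and -0.82 for mesenchymal markers, with 2 higher genes each among other EMT factors and splicing regulators. Centring on housekeeping genes gave 1 higher and 2 lower corepressor genes, 4 lower splicing regulators and 0 higher ESRP-spliced genes. Centring on array medians placed TWIST1 past the limit, for 4 higher members. Over all genes, averaging probe sets gave 588 higher and 503 lower. Differences against a level near background are limited by that background, and no value here covers the spread between cultures. No paired analysis was possible because each line had 1 array.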
